A study of Mus musculus with 12 samples.

Results

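The injury-response transcription factors described here are 10 genes, Atf3, Jun, Sox11, Stat3, Klf6, Klf7, Smad1, Cebpd, Egr1 and Myc, chosen by name as factors tied to the response of neurons to axon injury. They were read by gene symbol from the count tables of cultured dorsal root ganglion (DRG) neurons. Of the 10, 9 were among the 9112 genes of the table for the libraries labelled Cre+, and 10 were among the 14177 genes of the table for those labelled Cre-. Cebpd was the gene listed only for the libraries labelled Cre-. Each of the members listed passed the filter on low values, a mean above 1 FPKM (sequenced fragments scaled to transcript length and to library depth).
The neurons came from adult male mice homozygous for RiboTag, an allele of the ribosomal protein gene Rpl22 that gains an HA tag once Cre has acted (Rpl22HA/HA), with the Runx3-Cre driver (labelled Cre+) or without it (labelled Cre-). Runx3 marks proprioceptive neurons, the sensory neurons that report muscle stretch, so the tag was meant for a minority of the neurons. Cells of all ganglia from 5 mice were pooled per sample, enriched for neurons on a density cushion and kept in culture for 24 h, with no other treatment in any group. Ribosome-associated RNA was taken with an HA antibody (pull-down) and total RNA from 10% of the lysate (input), as 3 pull-downs and 3 inputs per genotype, 12 libraries in all. The labels give an age of 3 to 6 months, and the methods a younger one. Taking ganglia apart cuts every axon, and uninjured tissue was not part of these libraries, so the comparisons concern recovery in the pull-down and not induction by injury.

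When a peripheral axon is cut, signals from the lesion reach the cell body and switch on transcription factors that turn a transmitting neuron into a growing one. Atf3 and Jun are basic leucine zipper factors induced in nearly every axotomized sensory neuron, Jun through the kinases DLK and JNK. Stat3 carries the signal of cytokines that use the gp130 receptor, Smad1 that of bone morphogenetic proteins, and Sox11, Klf6 and Klf7 promote axon growth. Egr1 and Myc are early-response genes whose transcripts are short-lived, and Cebpd encodes a C/EBP factor of inflammatory and injury responses. A gene higher in the pull-down than in the input has relatively more of its RNA in the captured material than the average gene. Without Cre the ribosomes should carry no tag, so by their labels the Cre- pull-downs are background controls that hold what the antibody and beads retain, and a call in them is not by itself a measure of ribosome association. In these bulk samples, fewer cells of a type and less RNA per cell cannot be told apart.

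Counts on the listed genes ranged from 9957913 to 13941113 in the inputs labelled Cre+, from 8886308 to 11457315 in their pull-downs, from 9403767 to 12181960 in the inputs labelled Cre- and from 14861795 to 18633365 in their pull-downs. Runx3, the gene that drives Cre, had 49, 37 and 90 counts in the inputs labelled Cre+ and 205, 17 and 96 in their pull-downs, against 48, 23 and 38 in the inputs labelled Cre- and 372, 532 and 691 in their pull-downs. It was enriched in the pull-downs labelled Cre- (log2 fold change 3.52 ± 0.43 SE, edgeR FDR 2.36e-04) and not by the test in those labelled Cre+ (1.55 ± 0.87, FDR 0.309). Of the proprioceptor markers, a list that holds Runx3 itself, 6 of 8 were enriched in the libraries labelled Cre-, the others being Ntrk3, Etv1, Pvalb, Spp1 and Whrn, and 1 of 6 in those labelled Cre+, Ntrk3. The values of Runx3 and of these markers thus go against the labels. Every direction below follows the labels as deposited, with Cre+ and Cre- standing for libraries labelled so. The pull-downs labelled Cre+ were also less alike, with a mean correlation to their own group of 0.72 to 0.79 against 0.92 to 0.96 in the other groups, and pull-down 1 labelled Cre+ stood apart with a summed endothelial marker level of 821 normalized CPM (counts relative to library size, scaled by TMM), against 132 and 201 in the other two.

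The promoters and transcripts of the members are shown first for the genes the results turn on. RefSeq promoters on GRCm38.p6, the release of the mm10 build that the authors aligned to, were found for 7 of the 10 members, covering 250 bases before the start site and 50 after it. The unmatched members were Myc, Cebpd and Egr1. Those of Klf7, the member called enriched in the libraries labelled Cre+ (chr1:64121340-64121639, minus strand), of Jun, the member with the smallest FDR in those labelled Cre- (chr4:95052173-95052472, minus strand), and of Atf3, the usual marker of injured sensory neurons (chr1:191183284-191183583, minus strand), are printed 5′ to 3′ with motif matches in capitals.
Klf7 promoter: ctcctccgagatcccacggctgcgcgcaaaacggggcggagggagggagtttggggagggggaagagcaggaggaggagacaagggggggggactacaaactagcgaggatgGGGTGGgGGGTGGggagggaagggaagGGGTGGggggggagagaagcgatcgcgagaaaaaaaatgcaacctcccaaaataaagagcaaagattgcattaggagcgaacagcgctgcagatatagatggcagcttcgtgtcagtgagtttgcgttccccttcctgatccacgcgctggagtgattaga
Jun promoter: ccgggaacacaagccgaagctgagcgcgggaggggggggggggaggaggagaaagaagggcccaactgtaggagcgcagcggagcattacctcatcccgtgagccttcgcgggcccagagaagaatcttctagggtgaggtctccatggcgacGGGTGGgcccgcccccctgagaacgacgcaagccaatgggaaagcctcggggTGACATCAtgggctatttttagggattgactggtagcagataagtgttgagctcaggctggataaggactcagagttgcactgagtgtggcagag
Atf3 promoter: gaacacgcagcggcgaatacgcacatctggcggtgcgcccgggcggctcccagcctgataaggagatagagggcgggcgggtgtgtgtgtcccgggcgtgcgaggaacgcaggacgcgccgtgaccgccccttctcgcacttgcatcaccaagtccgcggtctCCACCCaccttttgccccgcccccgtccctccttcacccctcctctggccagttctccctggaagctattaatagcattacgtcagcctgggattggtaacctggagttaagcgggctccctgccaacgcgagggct
The capitals mark matches, on either strand, to the KLF box CCACCC and to TGACNTCA, a form of the cyclic AMP response element that Jun and ATF factors bind. The KLF box was found in 4 of the 7 members' promoters, 3 times in Klf7, starting 138, 131 and 111 bases before the start site used, and in 31.5% of all 32851 promoters. That start site of Klf7 lies inside the gene, which reaches to 64122345 on the minus strand, and sequence further upstream was not searched. TGACNTCA was found in Jun, Sox11 and Klf6, in Jun 45 bases before the start site, and in 8.83% of all promoters. This motif was added after the promoters were seen, so its matches in the members cannot be weighed against that share. CACGTG, the E-box that Myc binds, was found in 1 member, Klf6, and in 7.15% of all promoters. The strict response element TGACGTCA (1.79% of all promoters, a subset of TGACNTCA), the AP-1 site TGANTCA (7.81%), the STAT site TTCNNNGAA (8.30%), the EGR site GCGNGGGCG (5.55%), the C/EBP site TTGCGCAA (0.183%) and the SOX site AACAAAG (5.85%) had no match in the 7 windows.

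The 3′ untranslated regions of 9 of the 10 members were denser in the pentamer ATTTA, the core of the AU-rich elements that shorten the life of many early-response transcripts, than the median of 1.38 per kb over the 10695 tested genes with such a region. Myc had 4.29 per kb, a density that 8.77% of those genes reached, Jun 3.24 per kb and Klf7 2.87 per kb, whereas Stat3 had 0.54 per kb. Myc and Stat3 each had 2 pentamers, in 466 and 3701 bases, so their densities differ through length alone. Sox11 (1.44 per kb, reached by 48.9% of those genes) and Egr1 (1.64 per kb, reached by 43.9%) lay near the median. The longer form TTATTTATT was found in 2 members, Sox11 and Cebpd, and in 8.96% of the tested genes. The first such element is shown in capitals within 30 bases for those 2 members, and the first ATTTA for Myc, the member with the highest density.
Sox11, base 5777 after the stop codon: aaattaagcaTTATTTATTgaaaactatgt
Cebpd, base 1107 after the stop codon: ggttggacatTTATTTATTgtaacagaaca
Myc, base 239 after the stop codon: taacagatttgtATTTAattgtttttttaa

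The members were abundant transcripts, except Cebpd. By the authors' mean FPKM, which is per length, Klf7 (627 in the table for Cre+ and 522 in that for Cre-) was the highest, in the top 0.43% and 0.37% of listed genes, and Atf3 (287 and 335) followed in the top 1.20% and 0.66%. Stat3, Klf6 and Jun lay between 74.1 and 114 FPKM in both tables, and Sox11, Egr1, Myc and Smad1 between 40.6 and 60.4 FPKM. Cebpd, at 1.70 FPKM in the table for Cre-, was close to the filter. The order of the highest members depends on the length used. With the longest coding transcript of GENCODE M21 in its place, Atf3 ranked 1 and Klf7 ranked 3 in the inputs labelled Cre- (345 and 98.2 normalized CPM per kb).

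Between pull-down and input, few of the members moved. A gene was called at an FDR (edgeR's quasi-likelihood test with Benjamini-Hochberg adjustment over all genes tested) below 0.1 and a 2-fold change. In the libraries labelled Cre+, 1 of 9 members was called enriched, Klf7, beside 4.72% of all 8947 genes tested, and 0 were called depleted, beside 2.19%. These shares rest on single libraries: the 422 genes called enriched and 196 depleted became 7 and 0 without input 1, 59 and 15 without input 2, 4 and 0 without input 3, 803 and 540 without pull-down 1, 654 and 354 without pull-down 2, and 320 and 116 without pull-down 3. By the FDR alone it was again 1 of 9, beside 7.22% of all genes. By DESeq2, too, Klf7 was enriched and 0 members were depleted, beside 1103 and 568 genes. In edgeR 2 of the 9 members, Klf7 and Atf3, had an unadjusted p below 0.05, as did 2109 of all 8947 genes tested. The groups did not overlap for 2 members, Klf7, with every pull-down above every input (15.5% of all genes), and Atf3, with every pull-down below every input (17.9%). In the libraries labelled Cre-, 0 of 10 members were called enriched, beside 6.01% of all 11526 genes tested, and 2 were called depleted, Egr1 and Myc, beside 5.83%. DESeq2 called 0 enriched as well, beside 763 genes. An unadjusted p below 0.05 in edgeR was found for 4 of the 10 members and for 3576 of all 11526 genes tested. By the FDR alone 3 of 10 members passed, Jun being the added one, beside 24.2% of all genes. Every pull-down was above every input for 2 members, Jun and Stat3, beside 18.2% of all genes, and below for 4, Klf7, Cebpd, Egr1 and Myc, beside 18.6%. The members' median log2 fold change was -0.22 in Cre+, with 4 of 9 above 0, and -0.29 in Cre-, with 3 of 10 above 0, against 0.08 and -0.04 over all genes tested. With 9 or 10 members, 1 or 2 calls are too few to set apart from the shares over all genes.

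**Figure D1:**
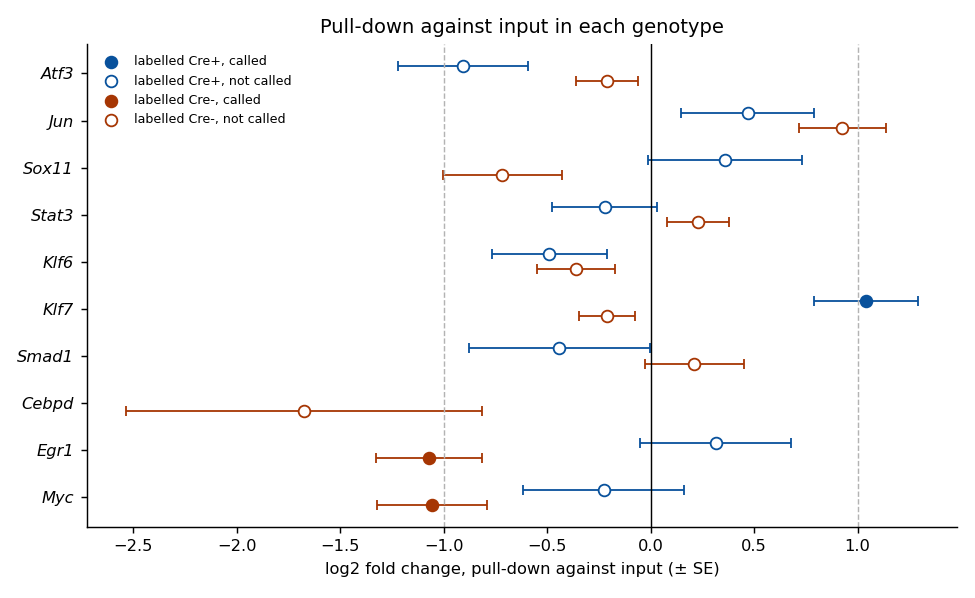
Log2 fold change of pull-down against input (x axis, ± SE, 3 libraries per group) for each member, in blue for the libraries labelled Cre+ and in brown for those labelled Cre-, with filled symbols for genes called at FDR below 0.1 and 2-fold (dashed lines). Klf7 in Cre+ (1.04) and Egr1 (-1.07) and Myc (-1.06) in Cre- are filled, and Cebpd has the widest error.

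Klf7, a zinc-finger factor that drives sensory axon growth and neurotrophin receptor expression, was the member called enriched in the libraries labelled Cre+. In normalized CPM it had 511, 697 and 632 in the inputs labelled Cre+ and 998, 1359 and 1429.6 in the pull-downs, so that every pull-down lay above every input. The log2 fold change was 1.04 ± 0.25 (SE, n = 3 per group, edgeR FDR 0.0654). In the libraries labelled Cre- its inputs had 768, 741 and 749 and its pull-downs 600.0, 659 and 693, which put the pull-downs slightly below the inputs (-0.21 ± 0.13, FDR 0.318). In Cre+ the call was lost at an FDR of 0.05, under upper-quartile scaling (0.86, FDR 0.134), under scaling by library size alone (0.61, FDR 0.207) and without any of the 3 inputs or without pull-down 3, where the value stayed between 0.93 and 1.14. Without an input, at most 59 genes were called enriched in all. Without pull-down 1, the library with the high endothelial sum, it was 1.22 with an FDR of 0.0195. The gene lies on chromosome 1 from 64029448 to 64122345 on the minus strand, with 3 or 4 exons in its coding transcripts. Of its exon bases in GENCODE M21, 39.4% are shared with genes on the opposite strand, Gm13748 and Gm26649. The counts were made on refSeq, so the shared part of the counted bases was not measured. As no source used here says whether strand entered the counting, reads of those genes cannot be told apart from its own.
Klf6, the family member that shares its growth-promoting role (chromosome 13, 5861489 to 5870393, plus strand), had 313, 491 and 487 in the inputs and 357, 304 and 259 in the pull-downs labelled Cre+, with 1 pull-down inside the range of the inputs. It was not called in Cre+ (-0.49 ± 0.28, edgeR FDR 0.312) or in Cre- (-0.36 ± 0.19, FDR 0.217). Its pull-downs labelled Cre- had 255, 336 and 407, against 368, 414 and 499 in the inputs, and the groups overlapped.

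**Figure D2:**
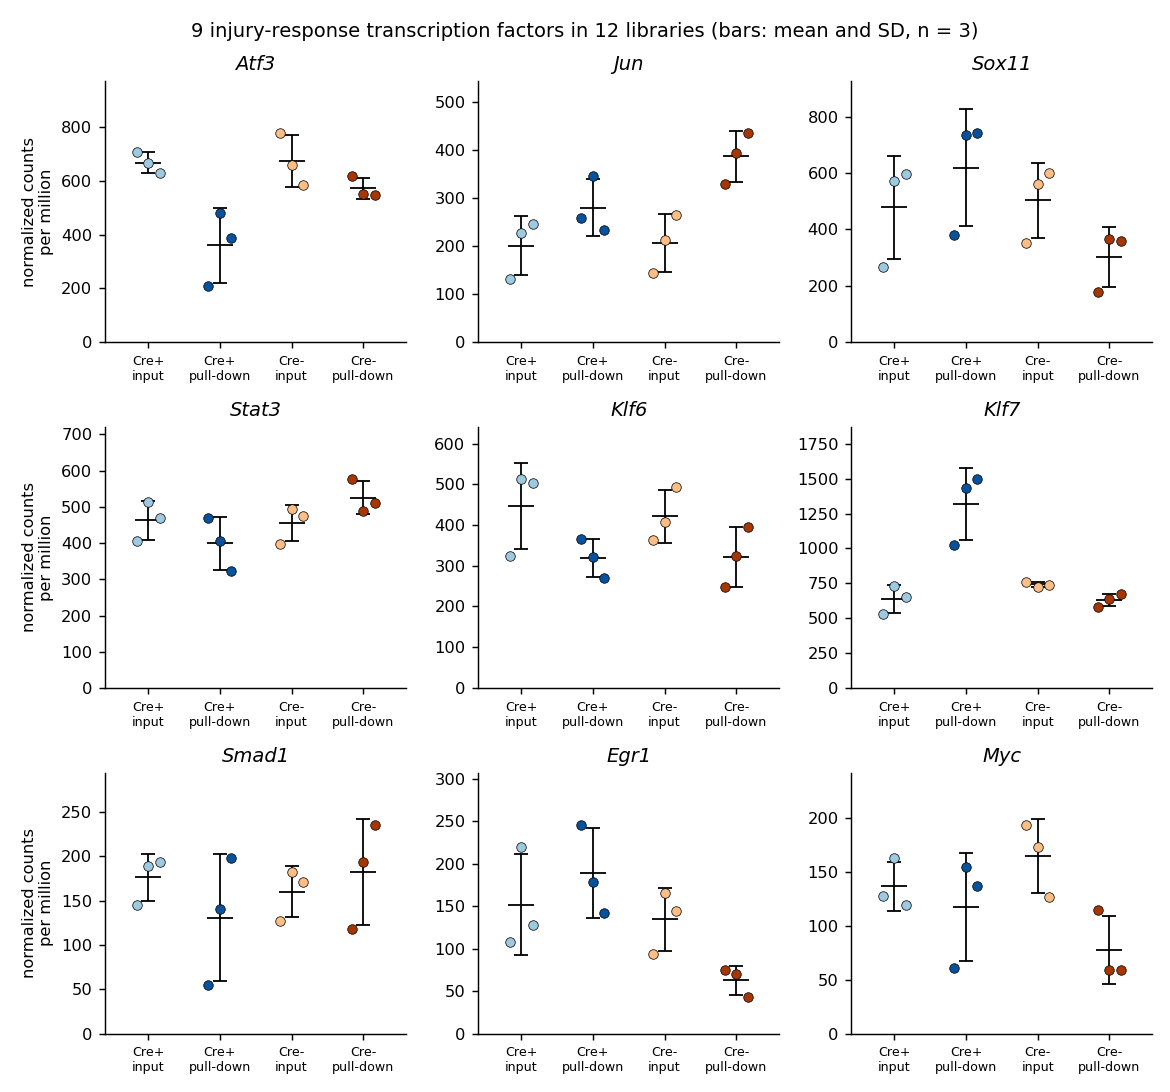
Normalized CPM (y axes, linear, from 0) of the 9 members found in both tables, by library, with the mean and SD of 3 libraries per group, on a scale set over all 12 libraries. The pull-downs labelled Cre+ of Klf7 (1022 to 1497) lie above its 9 other libraries, and the pull-downs labelled Cre- of Egr1 (43.6 to 75.6) lie below its 9 other libraries.

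Of the AP-1 and ATF pair, Atf3 and Jun, neither was called in either genotype. Atf3 (chromosome 1, 191170296 to 191183333, minus strand) had 683, 640.5 and 609.9 normalized CPM in the inputs labelled Cre+ and 203, 457 and 372 in the pull-downs. Every pull-down was below every input, and the change of -0.91 ± 0.31 did not pass the threshold (edgeR FDR 0.132). Pull-down 1 was the lowest. Without it the value was -0.60 (FDR 0.116). In a fit of all 12 libraries the inputs labelled Cre+ were higher than the pull-downs by 0.89 (edgeR FDR 0.0248), still short of 2-fold. In Cre- the inputs had 788, 675 and 591 and the pull-downs 637, 570.4 and 566, which overlap (-0.21 ± 0.15, FDR 0.374).
Jun (chromosome 4, 95049036 to 95052222, minus strand) has a single exon, and 7.28% of its exon bases in GENCODE M21 are shared with Junos on the opposite strand. In the libraries labelled Cre- it had 146, 216 and 268 in the inputs and 339.9, 409 and 448 in the pull-downs, with no overlap. At 0.93 ± 0.21 (FDR 0.0103, n = 3 per group, edgeR) it was higher in the pull-down but short of 2-fold. Leaving out 1 library gave 0.72 to 1.14, and it was called in 2 of these 6 fits, without pull-down 1 (1.05) and without input 3 (1.14). In Cre+ its inputs had 126, 217 and 238.3 and its pull-downs 253, 328 and 223, so the groups overlapped through pull-down 3 (0.47 ± 0.32, FDR 0.398).

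Among the mediators of cytokine and growth signals, Stat3, Smad1 and Sox11, none was called within a genotype. Stat3 (chromosome 11, 100886806 to 100939594, minus strand) had 392, 493 and 455 in the inputs and 457, 384 and 308 in the pull-downs labelled Cre+ (-0.22 ± 0.25, edgeR FDR 0.625). In Cre- its inputs had 403, 503 and 482 and its pull-downs 594, 506 and 526, just clear of each other (0.23 ± 0.15, FDR 0.326). Smad1 (chromosome 8, 79338395 to 79399428, minus strand) had 139.9, 181 and 188 in the inputs and 53.3, 133 and 189 in the pull-downs labelled Cre+, pull-down 1 being the lowest (-0.44 ± 0.44, FDR 0.567). In Cre- the inputs had 129, 186 and 174 and the pull-downs 121, 201 and 243 (0.21 ± 0.24, FDR 0.597), and the groups overlapped. Leaving out 1 library gave -0.83 to -0.037 for Smad1 in Cre+ and 0.0028 to 0.46 in Cre-, with no call.
Sox11, a factor of developing neurons that returns after axotomy (chromosome 12, 27334268 to 27342718, minus strand, a single exon), differed between the libraries of each group. Library 1 of every group was the lowest, which was also true of Smad1. For Sox11 it was at 257 in the inputs and 371 in the pull-downs labelled Cre+ against 548 to 708 in the other libraries. In Cre- it was 356 in the inputs and 185 in the pull-downs, against 571 and 608 in the other inputs and 380.1 and 369.7 in the other pull-downs. The change was 0.36 ± 0.37 in Cre+ (FDR 0.581, edgeR) and -0.72 ± 0.29 in Cre- (FDR 0.124). Leaving out 1 library gave 0.072 to 0.65 in Cre+ and -0.92 to -0.43 in Cre-, with no call. Taken by number, every pull-down lay above its input in Cre+ and below its input in Cre-. With that number as a block, Sox11 was still not called within either genotype.

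Egr1 and Myc were the members called depleted in the libraries labelled Cre-. Egr1, an immediate-early zinc-finger factor (chromosome 18, 34861207 to 34864956, plus strand), had 94.95, 169 and 147 normalized CPM in the inputs and 77.9, 72.5 and 44.96 in the pull-downs, with every pull-down below every input. It fell by 1.07 ± 0.25 on the log2 scale (edgeR FDR 0.0132, n = 3 per group). The call was lost without input 2 (-0.89) and without pull-down 3 (-0.85), in both cases by the fold limit, with FDRs of 0.0659 and 0.0450. In Cre+ the inputs had 104, 210.2 and 124 and the pull-downs 240.0, 169 and 135, which overlap (0.31 ± 0.37, FDR 0.628).
Myc, a regulator of growth and metabolism (chromosome 15, 61985341 to 61990361, plus strand), had 196, 177 and 129 in the inputs and 118, 61.7 and 61.3 in the pull-downs labelled Cre-. Pull-down 1 came close to input 3, and no library crossed over. It fell by 1.06 ± 0.27 on the log2 scale (edgeR FDR 0.0190). The call was lost without input 1 (-0.93), pull-down 2 (-0.90) or pull-down 3 (-0.89). It was also lost in a fit of all 12 libraries (FDR 0.126). Without pull-down 1 it was -1.43 with an FDR of 1.86e-04. In Cre+ the inputs had 123, 156 and 116 and the pull-downs 59.6, 147 and 131 (-0.23 ± 0.39, FDR 0.762), and pull-down 1 alone lay below the inputs' range. Without it the sign turned, to 0.12 with an FDR of 0.804.
Cebpd (chromosome 16, 15887286 to 15889545, plus strand, a single exon) was too scarce for a firm statement. It had 44, 48 and 77 counts in the inputs and 66, 3 and 6 in the pull-downs labelled Cre-. In normalized CPM these are 4.31, 3.96 and 5.84 against 3.68, 0.203 and 0.447, so pull-down 1 lay just below the inputs and the other two far below. The change of -1.67 ± 0.86 was not called (edgeR FDR 0.208). With the replicate number as a block it was called (-2.56, FDR 0.0853). Without pull-down 1 it was -3.81 with an FDR of 0.00361. Of its exon bases in GENCODE M21, 15.0% are shared with Spidr on the opposite strand. Pull-down 1 also had a summed endothelial marker level of 195 normalized CPM, against 28.2 and 32.5 in the other two pull-downs, and the part of other cells in the Cebpd value was not tested.

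**Figure D3:**
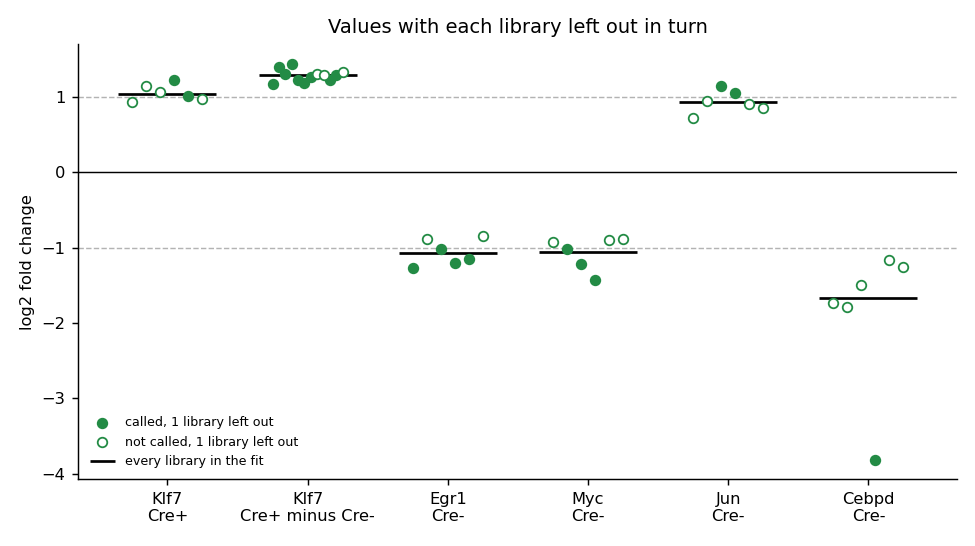
Log2 fold change (y axis) of pull-down against input, or of its difference between genotypes, with every library (black line) and with each library left out in turn (circles, filled where the gene was called), for 6 results. Klf7 stayed above 0 and Egr1 and Myc below 0 in every fit shown, while the value of Cebpd ran from -3.81 to -1.17.

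The difference between the enrichments of both genotypes was then tested in a fit of all 12 libraries, over 9006 genes. Klf7 was the member called, with a log2 difference of 1.29 ± 0.26 (Cre+ minus Cre-, edgeR FDR 0.0358). That is 1 of 9 members called higher, beside 2.30% of all genes, and 0 called lower, beside 2.0%. Over all genes the 207 called higher and 180 lower became 13 and 30 without input 2 labelled Cre- and 717 and 697 without pull-down 2 labelled Cre+, the extremes of leaving out 1 library. By DESeq2 2 members were higher, Klf7 and Egr1, beside 614 genes in all, and 0 were lower, beside 428. In edgeR 3 of the 9 members had an unadjusted p below 0.05, as did 1754 of all 9006 genes. The difference for Klf7 held under each scaling (1.06 with library size alone and 1.12 with upper-quartile scaling) and was lost without input 2, input 3 or pull-down 3 labelled Cre-, with FDRs of 0.105 to 0.116 at log2 differences of 1.29 to 1.33. Egr1 had the larger value with the larger error (1.41 ± 0.47, FDR 0.140). Leaving out 1 library gave 1.17 to 1.78 for Egr1, which was called in 2 of these 12 fits (smallest edgeR FDR 0.0770). Sox11 (1.11 ± 0.52, FDR 0.254) and Myc (0.87 ± 0.50, FDR 0.360) pointed the same way. Without pull-down 1 labelled Cre+, 3 members were called higher, Klf7 (1.44), Sox11 (1.37, FDR 0.0872) and Myc (1.18, FDR 0.0830). In that fit 632 of all genes were called higher and 601 lower. With the column number within genotype as a block, Klf7 (1.28, FDR 0.0594) and Sox11 (1.17, FDR 0.0874) were called, beside 48 genes higher and 63 lower. The other members had differences between -0.66 for Atf3 and -0.10 for Klf6 and were not called. In the same contrast the endothelial markers had a median of 2.34 (7 of 7 above 0, 1 called higher), the glial markers 1.05 (8 of 10 above 0, 1 called higher and 1 lower), the neuronal markers -0.57 (4 of 14 above 0, 1 called higher and 2 lower) and the proprioceptor markers -1.79 (1 of 6 above 0, 2 called lower), and their part in the values of the members was not tested.

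The pull-downs and the inputs were also compared directly between the genotypes on the scale of all 12 libraries. In the inputs 0 of 9 members were called by edgeR or by DESeq2, as were 0 of all 9006 genes, with 20 genes and 0 members at an unadjusted p below 0.05. In the 6 inputs alone these were 182 genes and 0 members, and with the column number as a block, by which inputs of both genotypes deviated together, 305 genes and 0 members, again with 0 calls. Each of these gene counts is lower than an unadjusted p below 0.05 would give if no gene differed. The spread in the fit of all 12 libraries was taken over inputs and pull-downs together. The 0 calls thus do not show that the inputs were alike. The members' input differences lay between -0.27 for Myc and 0.17 for Egr1, with SEs of 0.19 to 0.38. Between the pull-downs, 3 members were called higher in Cre+, Egr1, Klf7 and Sox11, beside 10.8% of all genes, and 0 were called lower, beside 7.12%. These shares, too, rest on single libraries. The 970 genes higher and 641 lower became 372 and 323 without pull-down 3 labelled Cre-, and 1402 and 1098 without pull-down 2 labelled Cre+. DESeq2 also called 3 members higher and 0 lower, beside 1306 and 743 genes. Between the same pull-downs 4 of 7 endothelial markers were called higher (median 2.28), 2 of 10 glial markers higher and 1 lower (1.02), 1 of 5 fibroblast markers higher (0.44), 4 of 14 neuronal markers lower (-0.44) and 2 of 6 proprioceptor markers lower (-1.18), and their part in these calls was not tested. Every Cre+ pull-down was above every Cre- pull-down for these 3 members, beside 13.5% of all genes, and below for Atf3 and Stat3, beside 15.0%. Egr1 had 246, 179 and 142 against 75.6, 70.0 and 43.6 (1.58 ± 0.34, edgeR FDR 0.0117). Klf7 had 1022, 1436 and 1497 against 582, 636 and 672 (1.07 ± 0.19, FDR 0.00468). Sox11 had 379.8, 736 and 742 against 179, 367 and 358 (1.04 ± 0.37, FDR 0.0739). Atf3, at 208, 483 and 389 against 618, 551 and 549, was lower by the FDR and short of 2-fold (-0.67 ± 0.25, FDR 0.0895). In a fit of the 6 pull-downs alone 121 of all genes were called higher and 132 lower. There the call of Sox11 was lost (1.01, FDR 0.174), while Egr1 (FDR 0.0871) and Klf7 (FDR 0.0632) were still called. With the column number as a block in those 6 pull-downs, Sox11 was called again (1.02, FDR 0.0323), beside 291 genes higher and 223 lower. The call of Klf7 was lost by the fold limit with library size alone (0.85), with upper-quartile scaling (0.90), without pull-down 2 or 3 labelled Cre+ and without pull-down 1 labelled Cre-, at FDRs of 0.00748 to 0.0187. The call of Sox11 was also lost under both scalings, at an FDR of 0.05, without pull-down 2 or 3 labelled Cre+, without input 2 labelled Cre- and without any pull-down labelled Cre-, at 0.76 to 1.20.
Ordered by the mean over the 4 groups, Klf7 was highest in the pull-downs labelled Cre+ (1318 ± 258 SD), and its other groups, from 742 to 630.0, did not differ from each other by the test, with FDRs of 0.616 or more. Egr1 ran from 189 ± 52.8 in the pull-downs labelled Cre+ through 152 and 135 in the inputs to 63.0 ± 17.1 in the pull-downs labelled Cre-. The step from the inputs labelled Cre- to the pull-downs labelled Cre- was the one between neighbours past the threshold (FDR 0.0964). Jun was highest in the pull-downs labelled Cre- (386 ± 52.8) and lowest in the inputs labelled Cre+ (201 ± 61.6), and its neighbours in that order did not differ by the test.

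The other genes of the pathways were taken from 8 lists of 133 genes. In the libraries labelled Cre+ 2 genes of all lists were called enriched and 1 depleted, of 98 tested, beside 4.72% and 2.19% of all genes. In those labelled Cre- 6 were called enriched and 18 depleted, of 111 tested, beside 6.01% and 5.83% of all genes. Among the AP-1, ATF and CREB partners, 0 of 18 were called in Cre+, and 1 rose and 3 fell of 18 in Cre-, with a list median of -0.38. Fos, the partner of Jun in AP-1, rose from 7.25 ± 1.09 to 17.8 ± 7.11 normalized CPM (SD, n = 3, 1.30 ± 0.37 SE, edgeR FDR 0.0314). Atf4 and Atf5, factors of the integrated stress response, fell from 298 ± 16.9 to 141 ± 30.2 (-1.08 ± 0.18, FDR 0.00174) and from 70.3 ± 8.06 to 21.8 ± 8.92 (-1.68 ± 0.28, FDR 0.00163), and Atf1, a CREB relative, had -1.06 ± 0.30 (FDR 0.0302).
Of the C/EBP, EGR and MYC relatives, 0 of 12 were called in Cre+, and 0 rose and 2 fell of 15 in Cre-, Ddit3 (CHOP), the C/EBP factor of endoplasmic reticulum stress, from 105 ± 7.31 to 44.4 ± 11.1 (-1.24 ± 0.21, edgeR FDR 0.00197), and Mxd1, which competes with Myc for its partner Max (-1.18 ± 0.36, FDR 0.0409). Of the KLF family, 0 of 8 were called in Cre+ beside Klf7 and Klf6, and in Cre- 1 of 9 rose, Klf12 (1.29 ± 0.34, FDR 0.0224), and 2 fell, Klf3 (-1.003 ± 0.30, FDR 0.0365) and Klf4, a suppressor of axon growth (-1.004 ± 0.36, FDR 0.0795). Of the SOX family 0 of 3 in Cre+ and 0 of 4 in Cre- were called. Its smallest FDR belonged to Sox9, a glial factor, at -0.66 ± 0.31 in Cre- (FDR 0.164).

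**Figure D4:**
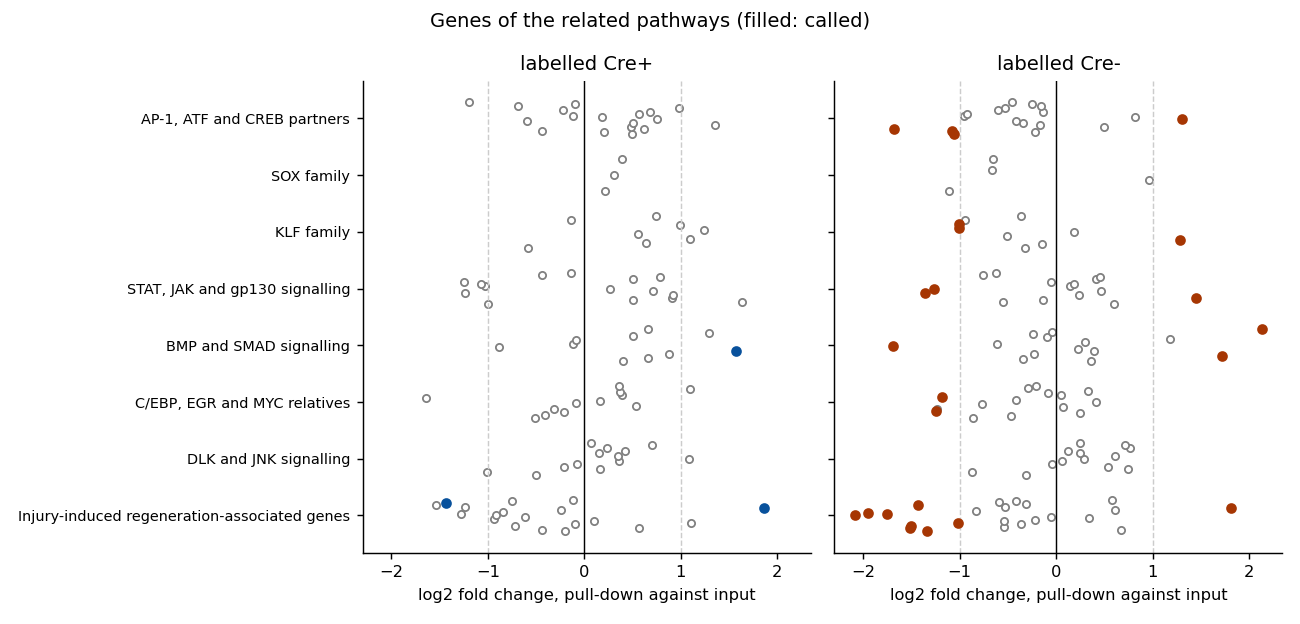
Log2 fold change of pull-down against input (x axes) of each tested gene in the 8 pathway lists (rows), for the libraries labelled Cre+ (left) and Cre- (right), with filled points for genes called. The filled points number 3 on the left and 24 on the right, 18 of the latter below 0, with the most in the row of regeneration-associated genes.

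In the pathway of Stat3, 0 of 15 genes of STAT, JAK and gp130 signalling were called in Cre+, and 1 rose and 2 fell of 15 in Cre-. Jak1, the kinase that phosphorylates Stat3, rose from 310.0 ± 15.8 to 849 ± 38.8 (1.45 ± 0.14, edgeR FDR 5.2e-05), while the cytokine Lif (-1.36 ± 0.39, FDR 0.0310) and Osmr, the oncostatin M receptor (-1.27 ± 0.25, FDR 0.00445), fell. In the pathway of Smad1, 1 of 10 genes of BMP and SMAD signalling rose in Cre+ and 0 fell. This was the receptor Bmpr2, from 965 ± 345 to 2869 ± 552 (1.57 ± 0.32, FDR 0.0448). In Cre- 2 of 14 rose, Smad9, a close relative of Smad1, from 27.98 ± 7.78 to 123 ± 33.2 (2.13 ± 0.26, FDR 2.42e-04), and the ligand Bmp2 (1.72 ± 0.66, FDR 0.0937), and 1 fell, the target Id2 (-1.69 ± 0.52, FDR 0.0405). Of the 13 DLK and JNK genes, which lie upstream of Jun, 0 were called in either genotype, and the smallest FDR was that of Mapk10, the neuronal JNK3, at 0.60 ± 0.15 in Cre- (FDR 0.0171).
The injury-induced regeneration-associated genes, many of them targets or companions of these factors, had a median of -0.61 in Cre+ and -0.54 in Cre-. In Cre- 1 of 23 rose and 8 fell, beside 6.01% and 5.83% of all genes. Gap43 and Basp1, growth cone proteins, fell from 626 ± 107 to 186 ± 37.3 (-1.75 ± 0.19, edgeR FDR 1.11e-04) and from 306 ± 41.3 to 107 ± 24.1 (-1.52 ± 0.20, FDR 3.36e-04), and the neuropeptide Gal (-2.09 ± 0.34, FDR 0.00152) and the receptor Gpr151 (-1.95 ± 0.30, FDR 9.65e-04) fell as well. In Cre+ 1 of 19 rose, Lmo7 (1.86 ± 0.42, FDR 0.0599), and 1 fell, Sprr1a (-1.43 ± 0.35, FDR 0.0696), both chosen for naming after their values were seen. Lmo7 was also the gene of the list that rose in Cre- (1.81 ± 0.34, FDR 0.00380).

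Markers of other cells moved with the pull-downs in both genotypes. In Cre- the 14 neuronal markers summed to 48969 to 56977 normalized CPM in the pull-downs and 24808 to 29742 in the inputs, and 3 of 14 were enriched, the abundant Nefm, Nefh and Snap25. The list's median log2 fold change was 0.17, with 8 of 14 above 0. The Schwann and satellite glia markers in the table summed to 2155 to 2547 in the pull-downs and 4275 to 5649 in the inputs, and 4 of 12 were depleted, as was 1 of 6 fibroblast markers, with sums of 862 to 1085 and 958 to 1180. In Cre+ the neuronal sums overlapped (23130 to 25376 and 21582 to 28293), with 2 of 14 depleted, and 0 of 10 glial and 0 of 5 fibroblast markers were called. Their sums were nonetheless lower in every pull-down than in every input, at 3039 to 3723 against 3819 to 5001 for glia and 425 to 821 against 998 to 1289 for fibroblasts. Of 7 endothelial markers 2 were enriched in Cre+, Tek and Flt1, and 0 of 6 in Cre-. No macrophage marker was called in either genotype, at sums of at most 121 in any library. The part of these shifts in the values of the members was not tested.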

How the data were processed

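RNA from HA pull-downs and inputs of cultured DRG neurons was sequenced in 12 libraries. The authors aligned reads to mm10 with STAR and counted uniquely mapped fragments per gene with HTSeq on refSeq refFlat. The submitters' processing notes also name CASAVA 1.8.2 and edgeR. The deposited counts are whole numbers and not normalized. The deposited mean FPKM, the authors' value over the libraries of a table, served as a filter (above 1) and for levels per length. A further 18 columns of normalized counts and ratios by library were not used, nor were the authors' fold changes and p-values. The column names of the libraries labelled Cre+ fit their group but not a single sample. Each input was 10% of the lysate of a pull-down and both are numbered alike, so a number is taken to pair them, although no source states which input belongs to which pull-down. Same-numbered pull-downs and inputs correlated in their deviations from the group means at 0.075, 0.034 and 0.14 in Cre- and at -0.0085, -0.0030 and 0.012 in Cre+.
Each comparison used edgeR 4.0.16 (TMM, glmQLFit and glmQLFTest with robust moderation) in R 4.3.3, on the 6 libraries of a genotype, or on all 12 for differences between genotypes. Calls needed an FDR below 0.1 and a 2-fold change. SE is the log2 fold change over the square root of F. Normalized CPM are counts scaled to the TMM-adjusted library size, set within a genotype unless all 12 libraries are named. The scripts were tested on simulated data. DESeq2 1.42.0, the exact test, other scalings, filters and thresholds, a replicate block and leaving out each library were tried.
Members and lists were chosen with earlier results of these data known. All members are named, and from each pathway list at most 4 called genes with the smallest FDR, or, with none called, the 1 with the smallest. Coordinates and promoters are from RefSeq (GRCm38.p6), transcripts from GENCODE M21. The motif TGACNTCA was added after the promoters were seen. Each sample pools mice, no source says that same-group samples came from separate days, and p-values measure the spread between these samples. Figures were drawn with matplotlib 3.10.9.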

Additional observations from a re-analysis of the deposited data

Results flagged for a closer look

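Klf7 had opposite signs in the genotypes. Each pull-down lay above each input in the libraries labelled Cre+ (1.04 ± 0.25, edgeR FDR 0.0654), as for 15.5% of all genes. In those labelled Cre- each pull-down lay below each input, as for 18.6% of all genes. That change was small and not called (-0.21 ± 0.13, edgeR FDR 0.318). The difference of both enrichments was 1.29 ± 0.26 (log2, Cre+ minus Cre-, edgeR FDR 0.0358), and Klf7 was the member called by edgeR's test of the difference itself. The call was lost without input 2, input 3 or pull-down 3 labelled Cre- (FDR 0.105 to 0.116). DESeq2 also called Egr1 (1.46, FDR 0.0588), and edgeR with a replicate block also called Sox11 (1.17, FDR 0.0874). Runx3 counts were 372 to 691 in pull-downs labelled Cre- and 17 to 205 in pull-downs labelled Cre+, so which genotype the higher value belongs to rests on the labels as deposited.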

How the results depend on the processing

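Counts of members called in Cre+ held under DESeq2, the exact test and the fit of all 12 libraries. Klf7 was lost, leaving 0 members called higher, with library size alone, with upper-quartile scaling and at an FDR of 0.05, and leaving out 1 library gave 0 to 1. With library size alone 1 member was called lower, Atf3 (-1.32, FDR 0.0669). In Cre- Jun made 1 member called higher with no fold limit, 1 member (Egr1) was called lower in the fit of all 12 libraries, and leaving out 1 library gave 0 to 1 called higher and 0 to 3 called lower. The difference had 2 members higher by DESeq2 (Klf7 and Egr1, 1.46, FDR 0.0588) and 0 to 3 without 1 library. The pull-downs had 1 member higher with library size alone (Egr1) and 1 with upper-quartile scaling, 2 at an FDR of 0.05 and 2 in the 6 pull-downs alone, 1 to 3 without 1 library, and 1 lower with no fold limit (Atf3). The causes were not tested.
Signs turned with library size alone for Sox11 (-0.062) and Egr1 (-0.15) in Cre+ and for Stat3 (-0.0022) and Smad1 (-0.035) in Cre-, and by DESeq2 for Klf6 between the pull-downs (0.037). Leaving out 1 library turned the sign of Myc in Cre+ (-0.44 to 0.12), of Klf6 in the difference (-0.28 to 0.074) and between the pull-downs (-0.18 to 0.16), and between the inputs of Atf3 (-0.11 to 0.10), Jun (-0.24 to 0.19), Sox11 (-0.28 to 0.21), Stat3 (-0.064 to 0.11), Klf6 (-0.024 to 0.27), Smad1 (-0.0062 to 0.26) and Egr1 (-0.19 to 0.37), none of them called.
Over all genes, 422 were called higher and 196 lower in Cre+, against 1103 and 568 by DESeq2, 786 and 457 by the exact test, 1254 and 955 in the fit of all 12 libraries, 249 and 266 with upper-quartile scaling and 192 and 699 with library size alone. In Cre- 693 and 672 became 270 and 173 in the fit of all 12 libraries and 429 and 1238 with library size alone. For the difference 207 and 180 became 614 and 428 by DESeq2, 69 and 275 with library size alone and 82 and 206 with upper-quartile scaling, and for the pull-downs 970 and 641 became 552 and 995, and 628 and 870, with these scalings, and 121 and 132 in the 6 pull-downs alone. Leaving out 1 library gave 4 to 803 higher and 0 to 540 lower in Cre+, 575 to 817 and 525 to 1060 in Cre-, 13 to 717 and 30 to 697 in the difference, and 372 to 1402 and 323 to 1098 between the pull-downs. Library size alone shifted the median of all genes by -0.44 in Cre+, -0.23 in Cre-, -0.24 in the difference and -0.23 between pull-downs, and upper-quartile scaling by -0.19, -0.03, -0.18 and -0.17.
With a replicate block in Cre-, 3 members were called lower, the added one being Cebpd (-2.56, FDR 0.0853), and 704 genes were called higher and 792 lower. With the column number within genotype as a replicate block, fits chosen after seeing the data, Klf7 remained the 1 member called in Cre+ (1.04, FDR 0.0878), with 212 genes higher and 49 lower, and the difference had 2 members higher, Klf7 (1.28, FDR 0.0594) and Sox11 (1.17, FDR 0.0874), with 48 genes higher and 63 lower. The blocks changed no other call of a member. The fit without pull-down 1 of either genotype, the non-robust spread and the fit of 1 fraction alone were chosen after seeing the data. Same-numbered inputs of both genotypes correlated at 0.28, 0.20 and 0.20 by column number, and same-numbered pull-downs at 0.19, 0.08 and 0.11, each best with its own number, a hint from the data and not from the design. With the column number as a replicate block in the 6 libraries of 1 fraction, a fit also chosen after seeing the data, 0 members and 0 genes were called between the inputs (305 genes at an unadjusted p below 0.05), and 3 members were called higher between the pull-downs, Egr1, Klf7 and Sox11, with 291 genes higher and 223 lower. Low counts limit the precision for Cebpd, which had 3 and 6 counts in 2 pull-downs.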
